A study of Mus musculus with 44 samples.

Results

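The genes of the cytosolic ribosomal proteins were followed in mouse kidney with and without the clock gene Arntl, across the day. Members were the protein-coding genes whose symbol begins with Rpl (large subunit) or Rps (small subunit), without the Rps6k kinases, Rps19bp1 and the entries marked as pseudogenes (-ps). This rule, which used no measured value, found 85 of the 30284 genes in the deposited table, 52 of the large and 33 of the small subunit. A mean of at least 1 TPM (a level per transcript length, scaled to the same total in each library) over all libraries was reached by 82 of the 85 and by 12874 genes in all. The 3 members below it were Rps12 and Rpl10l, listed at 0 in every library, and Rpl39l, with a highest value of 0.0624 TPM.

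RNA was sequenced from 24 kidney samples, 12 labelled WT and 12 labelled KO. The sample labels call it polyadenylated RNA, while the text on the whole series speaks of total RNA. The KO lacks Bmal1 (gene symbol Arntl), the transcription factor that with Clock drives the circadian oscillator. All mice of both groups were of the strain 129SV, 8 to 12 weeks old, and fed only at night. Kidneys were taken at zeitgeber times (ZT, hours after lights on) 0, 4, 8, 12, 16 and 20, with libraries A and B for each genotype and time. The labels name neither the sex nor the allele, nor whether A and B came from separate animals, so p-values measure the spread between these libraries. A whole kidney mixes many cell types, and fewer cells of a type and less RNA per cell cannot be told apart in such samples.

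A cytosolic ribosome joins a small subunit, which reads the mRNA, to a large subunit, which forms the peptide bond, and each is built from ribosomal RNA and a set of small, mostly basic proteins. The genes of these proteins are among the most strongly expressed of any tissue and are usually held in step, since the subunits need nearly equal numbers of each protein. Their mRNAs begin with a cytosine followed by a run of pyrimidines, the 5′ terminal oligopyrimidine or TOP motif, through which the kinase mTORC1 and the RNA-binding protein Larp1 set their translation. Ribosome production in mouse liver is known to follow feeding and the clock, and kidneys on night feeding are a setting in which the same genes can be read.

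The letters around the annotated start sites are shown first, because the TOP motif lies at the start of the mRNA and because Arntl and Clock bind the E-box. Not all members carry these letters in their promoter windows, as the counts further below show. Those counts do not tell how many mRNAs begin with a TOP motif. Each stretch below runs from 25 bases before the RefSeq start to 20 bases from it (build GRCm38.p6), read in the direction of transcription. Capitals mark CTTTCC, a pyrimidine run, or, in Rpl23, the E-box CACGTG. They mark these letters wherever they lie and not a TOP start. In Rpl35 most of the marked run lies before the annotated start, and in Rpl13a it lies some bases after it.
Rpl13a, chr7:45128726-45128770, minus strand: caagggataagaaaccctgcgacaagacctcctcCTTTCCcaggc
Rpl28, chr7:4792940-4792984, plus strand: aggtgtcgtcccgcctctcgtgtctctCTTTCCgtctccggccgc
Rpl35, chr2:39005112-39005156, minus strand: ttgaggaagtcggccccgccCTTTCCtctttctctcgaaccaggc
Rps10, chr17:27635225-27635269, minus strand: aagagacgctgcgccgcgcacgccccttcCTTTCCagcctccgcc
Rps27, chr3:90213629-90213673, minus strand: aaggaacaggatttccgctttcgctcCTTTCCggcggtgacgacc
Rpl23, chr11:97782420-97782464, minus strand: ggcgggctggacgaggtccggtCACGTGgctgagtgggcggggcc
The 6 genes were chosen to show where these letters lie, not for their change in the KO.

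RefSeq promoter windows, from 250 bases before to 50 bases after a start, were found for 65 of the 85 members. CTTTCC stood on the transcribed strand of 27 of these 65 members (41.5%), against 16.9% of the 9523 other tested genes with a window and 16% of all 27025 genes of the promoter table. The ETS-type letters CCGGAAG, searched on both strands, were present in 26 members (40%), in 20% of the other tested genes and in 9.93% of all genes. The E-box CACGTG, which reads the same on both strands, was present in 6 members, Rpl13a, Rpl14, Rpl19, Rpl23, Rpl34 and Rps19. That is 9.23% of the members with a window, against 11.8% of the other tested genes and 8.09% of all genes. A match describes the letters in the window and is not a measured binding site. Most of each window lies before the start, so a match to CTTTCC is not a TOP motif at the start of the mRNA.

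Arntl was read in each library as a check of the labels. It ranged from 0.295 TPM to 12.9 TPM in WT, with a median of 3.37 TPM, and from 4.19 to 6.28 TPM in KO, so transcripts of the gene were still present in the KO and its level does not separate the labels at ZT4. The library labelled KO ZT4 A stood apart from the other 11 KO libraries. Its Cry1, a clock repressor, was at 1.03 TPM, against 11.5 to 17.8 TPM in the other KO libraries and 0.551 to 6.64 TPM in WT. Its Nr1d1, a direct target of Arntl, was at 23.8 TPM, against 1.23 to 3.46 TPM in the other KO libraries and 22.03 and 33 TPM in the WT libraries of that time. The label of this library may therefore be wrong, which cannot be settled from these files. It was kept under its label, so KO means and SDs over 12 libraries include it, and the main results are also given without it. Kidney tubule markers such as Slc34a1, Umod, Slc12a3 and Aqp2 were present, and no adrenal marker reached a mean of 1 TPM.

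In WT the ribosomal protein genes together held 2.39% ± 0.105 (SD, n = 12) of all TPM. The most abundant were Rpl41, which encodes the shortest ribosomal peptide, with a mean of 1099 TPM over all libraries, Rps27 with 942 TPM and Rplp1, of the acidic stalk, with 811 TPM. Rps15a followed with 724 TPM and Rps19 with 667 TPM. At the low end stood Rpl3l, the muscle-enriched relative of Rpl3, with 1.49 TPM, Rpl12 with 5.45 TPM and Rpl5 with 21.9 TPM. The level of a member is only what the mapping assigned to it, because close copies compete for the same reads. Of the 85 members, 74 had at least 1 copy elsewhere in the table with a transcript at least 95% identical over at least 90% of the coding sequence, 418 copies in all. Of these copies, 93 reached a mean of 1 TPM, and for 23 members the copies together exceeded the member. Rpl5, which enters the large subunit bound to its smallest RNA, stood at 21.9 TPM beside 379.6 TPM for its copy. Rpl12 stood at 5.45 TPM beside 292.4 TPM for its copy. Rps12 was listed at 0 while Rps12-ps3 and Rps12l1, identical to it over the whole coding sequence, had WT medians of 206.6 and 329.7 TPM.

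The first question was how the level of the members compared between the genotypes with time in the model. Nearly all were higher in KO by a small and similar amount. The summed level of the members ranged from 22143 to 25550 TPM over the WT libraries, with a median of 24020 TPM. In the KO it ranged from 23564 to 34659 TPM, with a median of 29761 TPM. The lowest KO value was that of the library labelled KO ZT4 A, and the other 11 KO libraries began at 28659 TPM, above every WT library. The share of all TPM was 2.98% ± 0.254 (SD, n = 12) in KO, and 3.04% ± 0.170 (SD, n = 11) without that library. By subunit, the large subunit summed to 13128 ± 574 TPM in WT and 16371 ± 1399 TPM in KO (SD, n = 12 each), the small subunit to 10781 ± 484 and 13429 ± 1153 TPM.

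**Figure D1:**
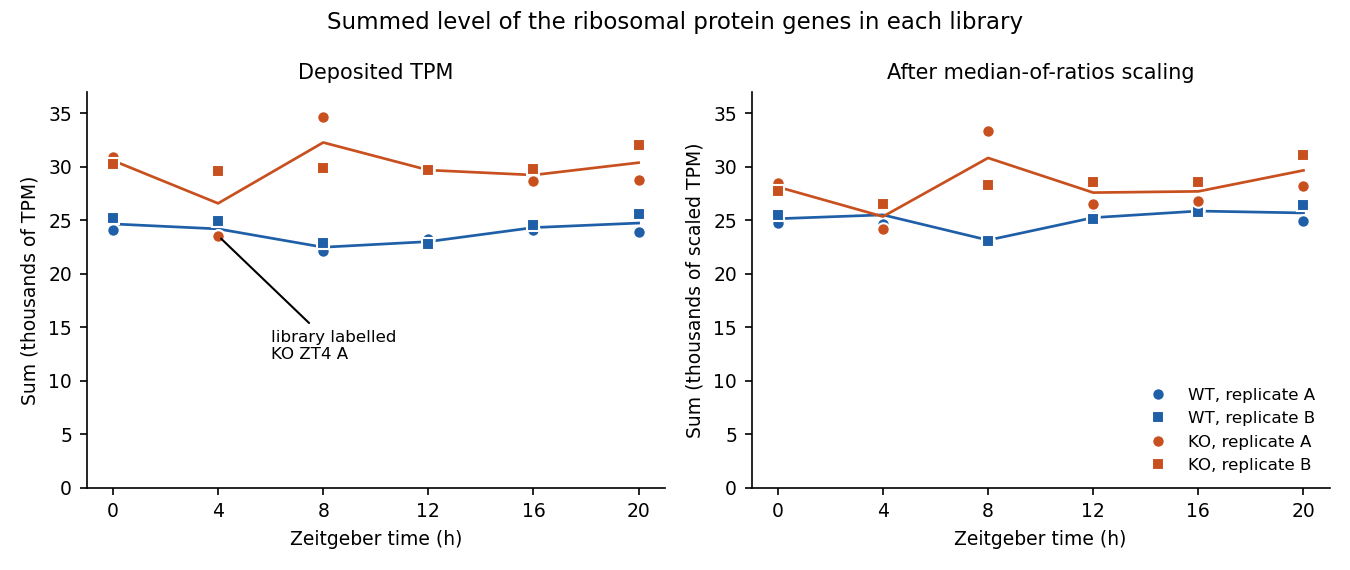
Summed level of the members in each library against zeitgeber time in hours, as deposited (left, in units of 1000 TPM, all members) and after median-of-ratios scaling (right, tested members). Points are single libraries (circles A, squares B) and lines join the mean of each genotype and time. Left, 11 of 12 KO libraries lie above every WT library and the library labelled KO ZT4 A lies among the WT libraries.

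Of the 82 members tested, 77 passed an adjusted p of 0.05 (limma on log2(TPM + 0.1) with time as a factor, Benjamini-Hochberg over all genes tested), where 60.9% of all genes tested did. Of the 77, 75 were higher in KO, against 50.9% of all genes, and 2 were lower, against 10% of all genes. The median log2 change of the members was 0.33, with quartiles of 0.28 and 0.38, and that of all genes tested was 0.148. It was 0.33 for the 50 tested members of the large subunit and 0.34 for the 32 of the small subunit. Without the library labelled KO ZT4 A, 77 members passed, against 62.9% of all genes, and the median was 0.37.

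TPM are shares of a fixed total, and the mitochondrially encoded genes took 40.5% ± 1.31 of it in WT and 37.6% ± 1.97 in KO (SD, n = 12 each). Median-of-ratios scaling, which divides each library by its typical ratio to a mean library, moved the median of all genes to 0.002. On that scale 67 of 82 members passed, against 44.3% of all genes. Higher were 63 members (22.1% of all genes) and lower were 4 (22.2% of all genes), and all 63 were also higher as deposited. The median of the members was then 0.18. Among the 15 that did not pass were Rpl10, Rps15a, Rps19, Rpsa and Rpl22l1. With the mitochondrial genes removed and each library rescaled, 73 members passed, against 48.6% of all genes, and the median was 0.27 against 0.085 for all genes.

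No member had all 12 KO libraries above or below all 12 WT libraries, where 1.42% of all genes did so upward and 0.249% downward. Without the library labelled KO ZT4 A, 54 of 82 members lay above WT in all 11 remaining KO libraries, against 8.34% of all genes, and Rps13 alone lay below, against 1.77%. After median-of-ratios scaling the counts were 15 higher, against 3.1% of all genes, and 2 lower, against 3.96%. In the library labelled KO ZT4 A, 81 of the 82 members lay within the range of the WT libraries. In each other KO library between 60 and 76 members lay above every WT library.

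Among the members with the smallest p-values, Rps26 ranged from 312 to 392 TPM in WT (median 340) and from 352 to 522 TPM in KO (median 463). Rps26 lies at the mRNA exit of the small subunit. Its log2 change was 0.43 (SE 0.05, adjusted p 8.1e-07, limma), and 0.29 after median-of-ratios scaling. Rpl3, whose protein reaches the peptidyl transferase centre, ranged from 208 to 258 TPM in WT (median 234) and from 227 to 367 TPM in KO (median 324), a change of 0.43 (SE 0.05). Rps28 changed by 0.44 (SE 0.05), from a WT range of 132 to 168 TPM to a KO range of 161 to 252 TPM. For these genes the ranges overlapped only through the library labelled KO ZT4 A: the other KO libraries began at 449 TPM for Rps26, 277 TPM for Rpl3 and 191 TPM for Rps28. Rpl7a rose by 0.36 (SE 0.04) and Rpl11, the partner of Rpl5 in binding Mdm2, by 0.39 (SE 0.05). The largest rise was that of the X-linked Rps4x, 0.44 (SE 0.05), from a mean of 277 ± 15.3 TPM to 378 ± 38 TPM (SD, n = 12 each).

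**Figure D2:**
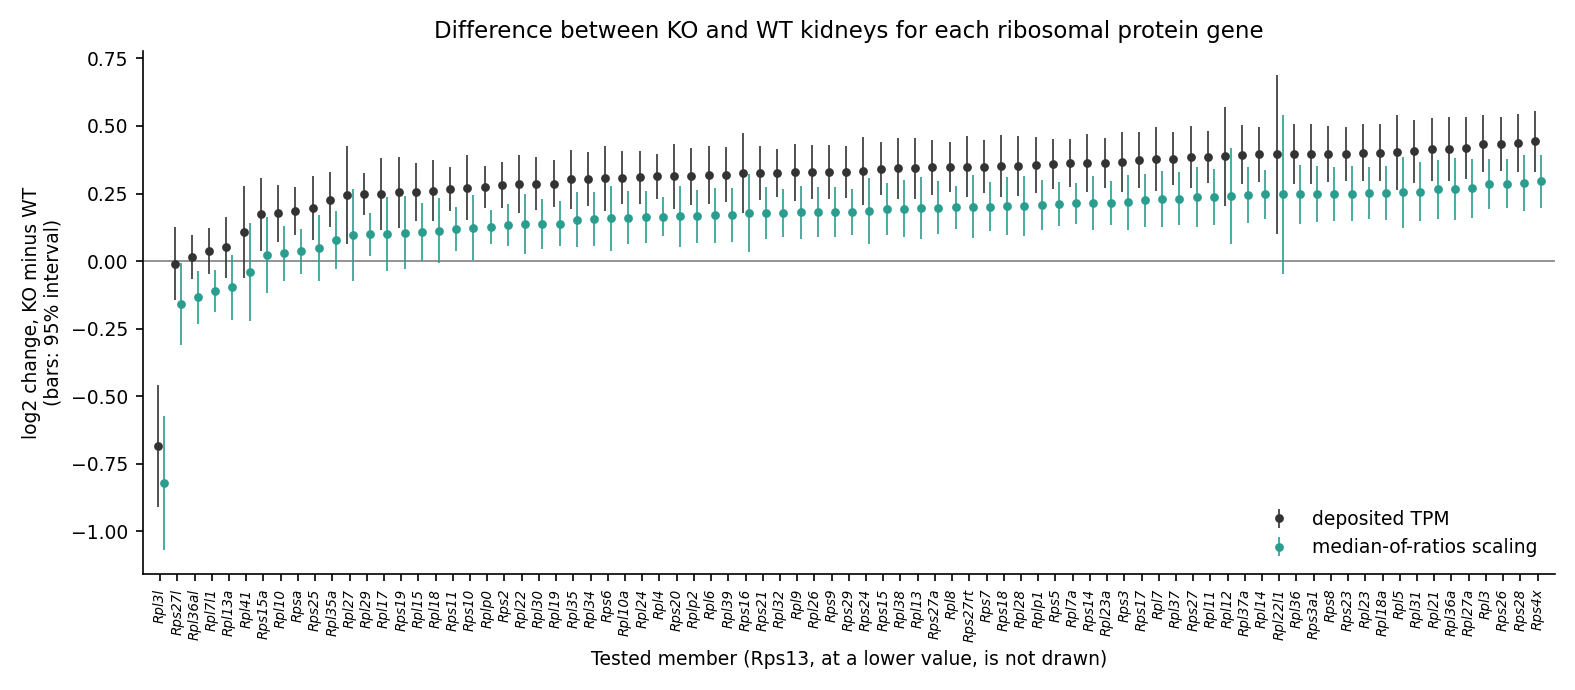
The log2 change between KO and WT of each tested member except Rps13, with its 95% interval, from deposited TPM (dark) and after median-of-ratios scaling (green). Members are ordered from the lowest change (Rpl3l, at -0.68) to the highest (Rps4x, at 0.44), and the scaling shifts them together by about the median of all genes, 0.148.

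The stalk proteins, which recruit translation factors to the large subunit, moved with the rest. Rplp0 rose by 0.28 (SE 0.04), Rplp1 by 0.36 (SE 0.05) and Rplp2 by 0.31 (SE 0.05). Rps6, the target of the S6 kinases, ranged from 108 to 141 TPM in WT (median 123) and from 126 to 191 TPM in KO (median 155), a change of 0.31 (SE 0.06). Rpl5 rose by 0.40 (SE 0.07) from its low level, and by 0.39 when its copy was added. Rpl23a, a docking site at the tunnel exit, rose by 0.36 (SE 0.04), and Rps24 by 0.33 (SE 0.06). Smaller rises were measured for Rpsa, also known as the laminin receptor, 0.19 (SE 0.04), for Rpl10, among the last proteins to join the large subunit, 0.18 (SE 0.05), and for Rps19, 0.25 (SE 0.06). These 3 passed as deposited and not after median-of-ratios scaling, where their changes were 0.04, 0.03 and 0.11.

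The comparison was then made at each time, with 2 libraries against 2. As deposited, 32 of 82 members passed at ZT0 (13.4% of all genes), 0 at ZT4 (0%), 71 at ZT8 (14.6%), 64 at ZT12 (38.2%), 39 at ZT16 (21.5%) and 7 at ZT20 (3.72%). At an unadjusted p under 0.05 the counts were 63, 5, 77, 68, 58 and 62, against 31.5%, 12.7%, 30.9%, 48.7%, 36.4% and 20.9% of all genes. The median log2 change of the members was 0.31 at ZT0, 0.12 at ZT4, 0.53 at ZT8, 0.40 at ZT12, 0.32 at ZT16 and 0.31 at ZT20. After median-of-ratios scaling the counts were 2 at ZT0 (9.07% of all genes), 0 at ZT4 (0%), 65 at ZT8 (13%), 5 at ZT12 (24.3%), 6 at ZT16 (15.2%) and 4 at ZT20 (3.57%). Of the 65 called at ZT8 on that scale, 63 were higher in KO, and the median of the members there was 0.42. Of these times, ZT8 is therefore the one at which most members passed on both scales.

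At ZT8 the summed level was 22143 and 22839 TPM in the WT libraries, the lowest and the third lowest of WT. In the KO libraries it was 34659 and 29903 TPM, of which the first, KO ZT8 A, was the highest of all 24. That library also had the lowest mitochondrial share, 32.3%, and the part of this share in the result was not tested. Without KO ZT8 A, 1 member passed at ZT8, against 0.575% of all genes, and 71 had an unadjusted p under 0.05, against 18.2% of all genes. With 1 library left in a group, such a count assumes that the lone library varies like the other groups.

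**Figure D3:**
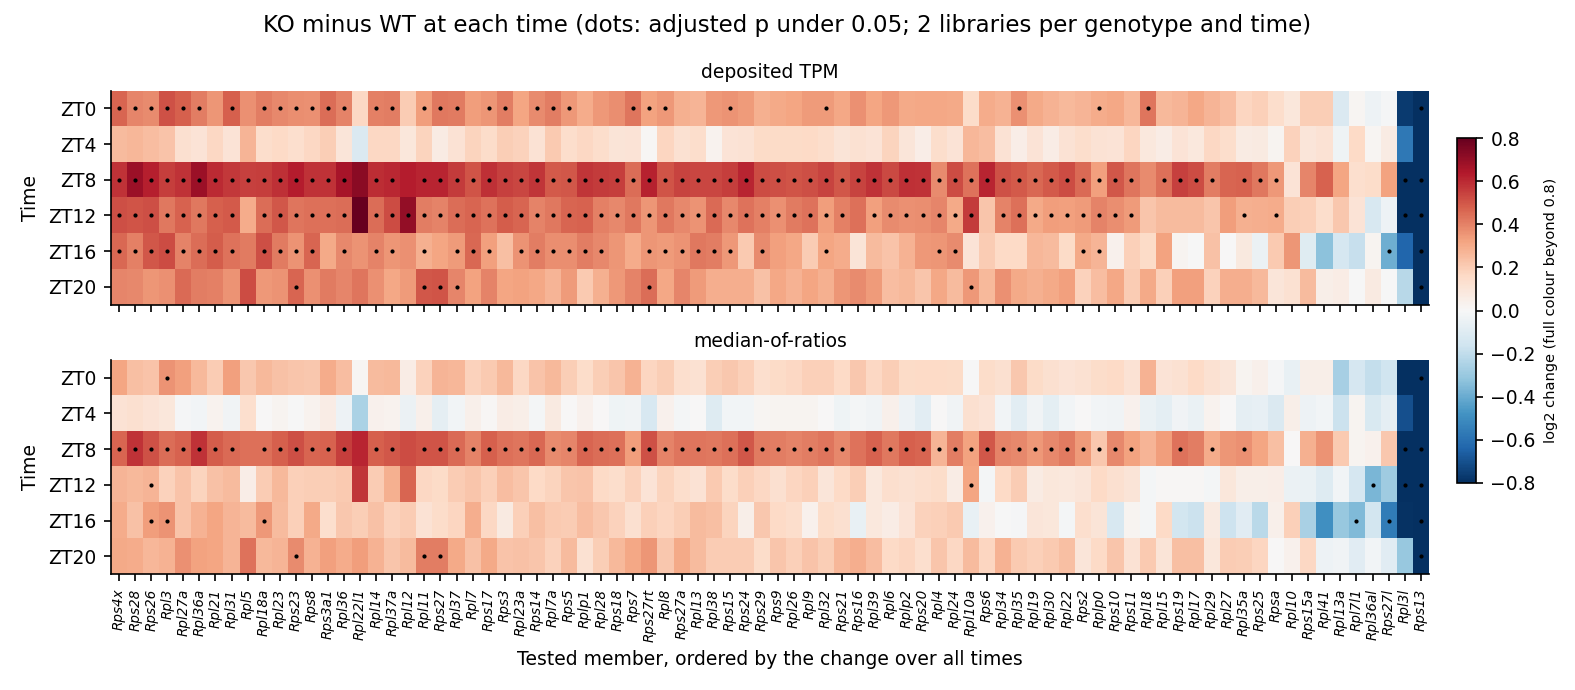
KO minus WT for each tested member (columns, ordered by the change over all times) at each time (rows), as deposited (top) and after median-of-ratios scaling (bottom). Red is higher in KO, blue lower, on a log2 scale with full colour beyond 0.8, and dots mark an adjusted p under 0.05. The ZT8 row carries 71 dots above and 65 below.

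At ZT4 the result turned on the library labelled KO ZT4 A. The summed level of the KO libraries was 23564 TPM in A and 29620 TPM in B, and 23504 and 24904 TPM in WT. Without library A, 25 members passed at ZT4, against 11.6% of all genes, 23 of them higher in KO. After median-of-ratios scaling without it, 2 passed, both lower, against 2.18% of all genes. Counts at the other times rose as well when it was left out, to 56 at ZT0 (18.6% of all genes), 54 at ZT16 (25.5%) and 36 at ZT20 (8.56%). Leaving out KO ZT4 B instead also gave 56 at ZT0 (18.6%) and 36 at ZT20 (8.57%), since either omission takes the spread between these libraries out of the shared error.

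Single libraries moved the other counts too, and the share of all genes called moved with them. At ZT0 the count was 0 without KO ZT0 A (0.00777% of all genes), WT ZT0 A (0.0544%) or WT ZT0 B (1.44%), and 4 without KO ZT0 B (6.15%). At ZT8 it was 20 without WT ZT8 A (3%) and 38 without WT ZT8 B (3.84%). It was 22, 41 and 25 at ZT12 without KO ZT12 A, WT ZT12 A and WT ZT12 B, against 16.5%, 24.6% and 19.9% of all genes. These omissions lowered the counts of the members and of all genes alike in direction. At ZT16 the count was 2 without KO ZT16 A (9.69%) or WT ZT16 A (4.42%) and 4 without WT ZT16 B (11.9%). At ZT20 it was 3 without KO ZT20 A (0.326%) and 0 without KO ZT20 B (0.179%), WT ZT20 A (0.132%) or WT ZT20 B (0.00777%). The count at a single time therefore rested on few libraries, while the count over all times stayed between 76 and 78 with any 1 library left out.

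For 9 members, among them Rpl13a, Rpl41, Rps15a and Rps27l, the sign of the change was not the same at all 6 times. No member's difference between KO and WT was shown to change over the day. In a model with a separate genotype difference at each time, 0 of 82 members passed (limma), against 0.179% of all genes. The smallest adjusted p was 0.385, and 3 members had an unadjusted p under 0.05, against 10.9% of all genes.

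Rps13, a small-subunit protein that binds early in assembly, was the strongest exception. As deposited it ranged from 79.1 to 106 TPM in WT, with a median of 95.2 TPM. In KO it was at 90.03 TPM in the library labelled KO ZT4 A and between 5.50 and 10.9 TPM in the others, so those 11 lay far below every WT library. The log2 change was -3.24 (SE 0.30, adjusted p 3.9e-07, limma), and -3.53 without the library labelled KO ZT4 A. Rps13 lies on chromosome 7, 116331505 to 116334195, minus strand (GRCm38), 3.02 Mb from Arntl, which spans 113207465 to 113314126 on the same chromosome.

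The processed copies of Rps13 moved at the same time. Rps13-ps2 (chromosome 7, 88530446 to 88530898) ranged from 223 to 263 TPM in WT and from 74.8 to 126 TPM in 11 KO libraries, and was at 231 TPM in the library labelled KO ZT4 A. Rps13-ps1 (chromosome 8, 87047689 to 87048226) ranged from 0 to 1.34 TPM in WT and from 244 to 343 TPM in the same 11 KO libraries, and was at 0.416 TPM in the library labelled KO ZT4 A. In that library all 3 genes therefore lay inside the WT range. When the copies were added to Rps13, the direction turned: the summed level was higher in KO by 0.21 (SE 0.04, adjusted p 0.00023, limma), a smaller change than the median of the members.

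Rps13-ps2 is identical to Rps13 over its 453 coding bases, while Rps13-ps1 differs by T411C and A429G, with positions counted from the first base of the start codon and the base of Rps13 first. The stretch from position 391 to 431 is shown because it holds the only bases by which the reference sequences of Rps13 and Rps13-ps1 differ within the coding part, in capitals.
Rps13: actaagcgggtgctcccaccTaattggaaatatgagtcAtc
Rps13-ps1: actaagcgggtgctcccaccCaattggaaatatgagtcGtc
Whether the RNA of the KO libraries carries these letters cannot be read from a table of abundances, and was not tested.

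**Figure D4:**
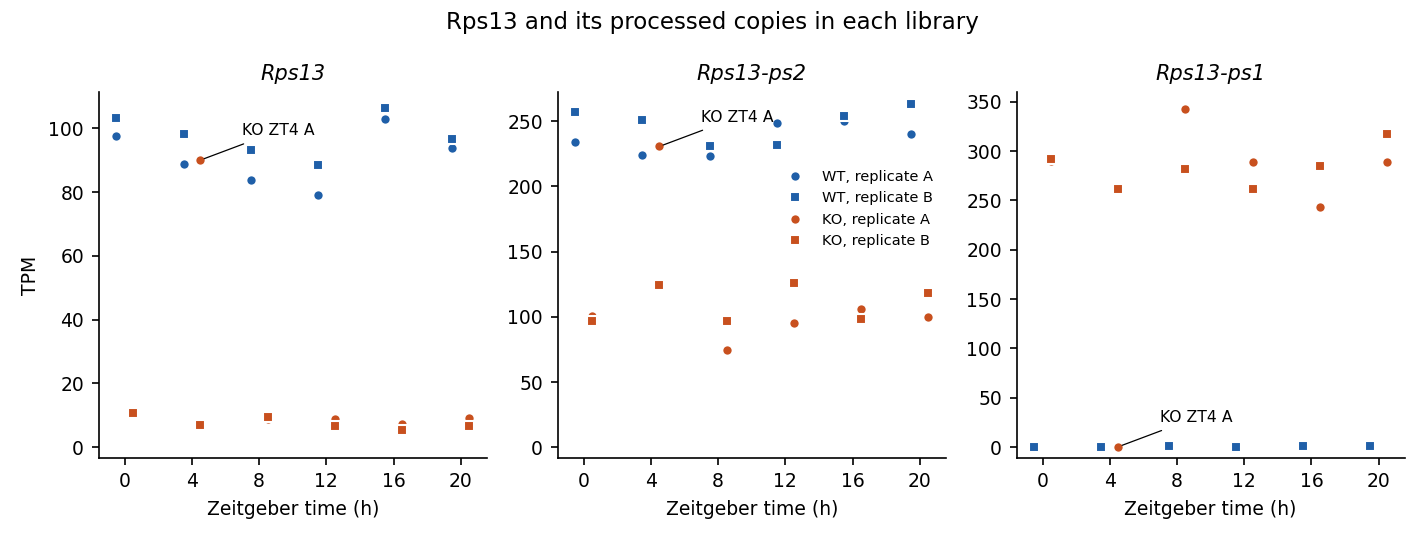
TPM of Rps13 and its processed copies Rps13-ps2 and Rps13-ps1 in each library against zeitgeber time in hours (circles A, squares B; WT blue, KO orange). In 11 KO libraries Rps13 lies at 5.50 to 10.9 TPM and Rps13-ps1 at 244 to 343 TPM, while the library labelled KO ZT4 A lies with WT in all panels.

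A second member on chromosome 7 also had pseudogenes that differed between the genotypes, but unlike Rps13 the member itself was not lower in KO. Rps15a, 4.79 Mb from Arntl, ranged from 600.1 to 736 TPM in WT (median 672) and from 533 to 857 TPM in KO (median 819), with a change of 0.17 (SE 0.07, adjusted p 0.029, limma). Its copy Rps15a-ps7, on chromosome 2, ranged from 49.7 to 65.6 TPM in WT, from 1.63 to 12.8 TPM in 11 KO libraries, and was at 37.4 TPM in the library labelled KO ZT4 A. Rps15a-ps8, on chromosome 4, ranged from 0 to 0.615 TPM in WT, from 2.83 to 5.91 TPM in the 11, and was at 1.86 TPM in the library labelled KO ZT4 A. For both pseudogenes that library thus lay between the WT range and the other KO libraries, not inside the WT range. The close copies added to Rps15a took in Rps15a-ps7 but not Rps15a-ps8, which was not among the copies that met the match limits. With them Rps15a changed by 0.08 (adjusted p 0.299, limma) and did not pass. Rpl27a, 3.69 Mb from Arntl, was the other member within 10 Mb and rose with the rest, by 0.42 (SE 0.05). Its level also depends on the mapping: its copy Gm7536, identical over the whole coding sequence, had a mean of 655 TPM beside 60.3 TPM for Rpl27a.

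Adding every close copy to its member, a choice made after seeing the data, changed few calls. Of the 82 members, 76 passed, against 61% of all genes, and 75 were higher in KO, with a median of 0.33. Rps15a no longer passed and Rps13 turned direction. Rps12 entered the test through its copies and was higher by 0.31 (SE 0.06), which makes 77 of 83. The copies alone summed to 24204 ± 1462 TPM in WT and 31179 ± 2564 TPM in KO (SD, n = 12 each).

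Several ribosomal proteins have a second gene, and of 6 such paralogs, Rpl3l, Rpl36al, Rpl7l1 and Rps27l did not rise as deposited while Rpl22l1 and Rps27rt did. Rpl3l, which replaces Rpl3 in muscle, ranged from 1.56 to 2.20 TPM in WT (median 1.77) and from 0.692 to 1.71 TPM in KO (median 1.09). Its log2 change was -0.68 (SE 0.11, adjusted p 2.8e-05, limma), lower at 6 of 6 times, and -0.82 after median-of-ratios scaling. Rpl36al, Rpl7l1 and Rps27l did not pass as deposited, with changes of 0.01 (SE 0.04), 0.04 (SE 0.04) and -0.01 (SE 0.06). After median-of-ratios scaling Rpl36al was lower by -0.13 (adjusted p 0.024) and Rpl7l1 by -0.11 (adjusted p 0.023), both limma, while Rps27l, at -0.16, had an adjusted p of 0.083. Rps27l is known as a target of p53. Rpl22l1, the partner of Rpl22, spread widely in KO, from 97.8 to 261 TPM (median 156), against 87.05 to 159 TPM in WT (median 115), and its change of 0.40 (SE 0.14) passed as deposited only.

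The ratio of a paralog to its partner within a library does not depend on the scaling. Rpl36al stood at 1.05 ± 0.043 of Rpl36a in WT and 0.798 ± 0.104 in KO (SD, n = 12 each), with 11 of 12 KO libraries below every WT library. Rps27l fell from 0.284 ± 0.017 to 0.220 ± 0.042 of Rps27, and Rpl7l1 from 0.0497 ± 0.0041 to 0.0395 ± 0.0057 of Rpl7. Rpl3l fell from 0.0079 ± 0.00083 to 0.0037 ± 0.0014 of Rpl3. A two-sided permutation test of the mean log2 ratio with 100000 resamples gave adjusted p-values over 6 pairs of 6.0e-05 for Rpl36al and Rpl3l, which rests on the smallest p it can give, and of 1.5e-04 for Rps27l and Rpl7l1. The ratio of Rpl22l1 to Rpl22 was 0.543 ± 0.098 in WT and 0.599 ± 0.175 in KO (adjusted p 0.425), and that of Rps27rt to Rps27 0.424 ± 0.021 and 0.414 ± 0.028 (adjusted p 0.371). These 2 tests do not show that the ratios were alike.

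**Figure D5:**
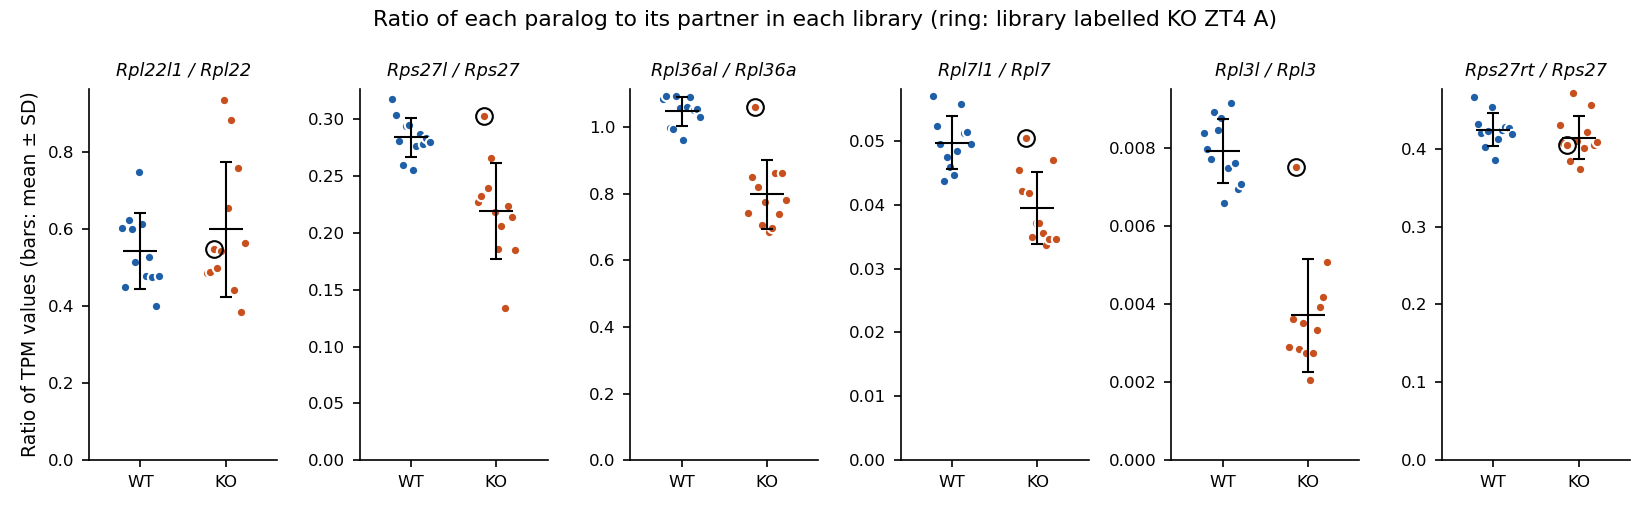
Ratio of each paralog to its partner in each library, with mean and SD per genotype. The ring marks the library labelled KO ZT4 A, which lies inside the WT range for Rpl36al, Rps27l, Rpl7l1 and Rpl3l, while the other 11 KO libraries lie below every WT library for Rpl36al and Rpl3l.

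The remaining members that did not pass were Rpl41 and Rpl13a. Rpl41 ranged from 939 to 1165 TPM in WT and from 631 to 1451 TPM in KO, and its change was 0.11 (SE 0.08, adjusted p 0.263). Its lowest value was that of KO ZT16 A, against 1143 TPM in KO ZT16 B. Without KO ZT16 A the change was 0.18 (adjusted p 0.0020, limma). Rps19, Rps15a, Rps27l and Rpl13a also had their lowest KO value in KO ZT16 A.

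The second question was whether members cycled over the day. A 24-hour cosine was called for 2 of 82 members in WT, against 13.7% of all genes, and for 0 in KO, against 3.64%. For 0 members did the rhythm differ between genotypes, against 0.629% of all genes. At an unadjusted p under 0.05 the counts were 6, 5 and 2, against 29.2%, 21.1% and 13.7% of all genes. On the log2 scale the median fitted distance from peak to trough was 0.14 for the members in WT and 0.13 in KO, where all genes tested had 0.25 and 0.21. The count in WT was 7, against 16.6% of all genes, without the library labelled KO ZT4 A. It was 4 without KO ZT8 A (15.2% of all genes) and 1 without WT ZT0 A (10%), WT ZT0 B (9.98%) or WT ZT12 A (10.6%). When the WT libraries were fitted alone it was 14, against 22.1% of all genes.

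Rpl13a, known from the complex that silences inflammatory mRNAs, was the clearer of the 2. Its WT libraries were at 53.5 and 57.9 TPM at ZT0, 50.01 and 51.3 at ZT4, 41.05 and 40.7 at ZT8, 39.2 and 40.8 at ZT12, 46.6 and 46.2 at ZT16, and 45.6 and 51.5 TPM at ZT20. The values at ZT8 and ZT12 lay below those at all other times. The fitted peak was at 23.4 h (SE 0.78) and the log2 distance from peak to trough 0.45 (SE 0.09, adjusted p 0.0073, limma). In KO it was 0.21 (SE 0.09, adjusted p 0.313), and the test of the 2 rhythms against each other gave 0.361 (adjusted p, limma). The letters CACGTG and CTTTCC both stand in its promoter window, and a link to the rhythm was not tested. Of the 6 members with CACGTG, Rpl13a alone was called rhythmic in WT, and Rpl7l1, the other member called, was not among the 6.

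Rpl7l1 was called in WT with a log2 distance from peak to trough of 0.29 (SE 0.07, adjusted p 0.029) and a peak at 20.8 h (SE 0.97). Its WT values were highest at ZT0, 25.3 and 25.8 TPM, and lowest on average at ZT12, 19.7 and 21.5 TPM. Although few members passed, the fitted WT peaks lay close together: 53 of 82 fell within 2 hours of ZT20 and 24 within 2 hours of ZT0, where 22.1% and 25.3% of all genes had theirs. In KO 40 fell within 2 hours of ZT16, where 16.7% of all genes did. These KO fits include the library labelled KO ZT4 A, which had the lowest summed level of the KO libraries. The KO peaks were not counted again without it, so a shared KO phase is not shown. Without that library the median fitted log2 distance of the members in KO was 0.10, against 0.13 with it. Rpl22l1 had a fitted distance of 0.77 (SE 0.26) in KO, which did not pass (adjusted p 0.161, limma). The members share their libraries, so these counts describe the same 12 samples many times over. Rescaling without the mitochondrial genes lowered the median log2 distance in WT from 0.14 to 0.08 and raised that in KO from 0.13 to 0.15.

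Single transcripts were then compared. Of 247 member transcripts with a mean of at least 1 TPM, 141 passed (limma), against 39.1% of all transcripts tested, and 137 were higher in KO, against 31.9%. The median change was 0.33 for protein-coding transcripts, 0.36 for processed transcripts and 0.30 for retained introns. Transcripts with no coding role held 11.3% ± 0.371 of the members' TPM in WT and 11.5% ± 0.447 in KO (SD, n = 12 each). The 4 lower transcripts were Rpl15-205, Rpl35a-202, Rpl3l-201 and Rps13-201. Rps24 is known for tissue-specific splicing of its last exons. Its transcript Rps24-202 held 18.2% ± 0.622 of the gene in WT and 17.5% ± 0.896 in KO (SD, n = 12 each).

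Genes next to the ribosome in the same pathway were read from fixed lists. Rack1, a scaffold protein on the small subunit, was higher in KO by 0.33 (SE 0.05), and Fau, which encodes a small-subunit protein as a fusion, by 0.30 (SE 0.05). Of 16 translation genes with TOP-type mRNAs, 15 were higher and 1 lower, with a median of 0.23. Eif3f, a subunit of the initiation factor that binds the small subunit, rose by 0.48 (SE 0.05) and Hnrnpa1 by 0.37 (SE 0.05). After median-of-ratios scaling 8 were higher and 1 lower. Of 36 ribosome biogenesis genes, 21 were higher and 2 lower as deposited, and 4 higher and 7 lower after that scaling, with medians of 0.16 and 0.01. Of all genes tested, 50.9% were higher and 10% lower as deposited, and 22.1% and 22.2% after the scaling, so this list lay near or below the background for rises. Npm1, a nucleolar chaperone held in both of these lists, rose by 0.45 (SE 0.07), and Nop10, of the pseudouridylation complex, by 0.27 (SE 0.04).

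The kinase Mtor was lower in KO, from 43.5 ± 7.58 TPM to 25.3 ± 5.57 TPM (SD, n = 12 each), a log2 change of -0.79 (SE 0.10), and -0.94 after median-of-ratios scaling. Deptor, which inhibits it, rose by 0.39 (SE 0.07). Of the 16 genes of that list, 8 were higher and 1 was lower as deposited, near the 50.9% of all genes that were higher. After median-of-ratios scaling 2 were higher and 5 lower, and the median went from 0.14 to -0.01. Proteins of the mitochondrial ribosome, made from a separate set of nuclear genes, had a median of 0.14, close to that of all genes. Of 78, 56 were higher and 1 lower as deposited, against 50.9% and 10% of all genes. After median-of-ratios scaling 13 were higher and 10 lower, against 22.1% and 22.2% of all genes. Mrps35 had the smallest p among them, with a change of 0.59 (SE 0.06), followed by Mrpl9 with 0.35 (SE 0.04).

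Other features that differ between genes and samples were measured beside these results. Members have short mRNAs, with a median main transcript of 630 bases. The 1940 other protein-coding genes under 1000 bases, a limit chosen after seeing the data, had a median change of 0.15, and those of them with a mean of at least 50 TPM, 556 genes, a median of 0.13. Among the latter, 52.2% were higher in KO, and 17.3% after median-of-ratios scaling. Cell type markers also moved. All 4 collecting duct markers and all 3 podocyte markers were higher in KO on both scales, their sums ranging from 162 to 261 TPM in WT and 197 to 467 TPM in KO, and from 50.1 to 70.9 and 68.3 to 99.4 TPM. Of 5 proximal tubule markers, 1 was higher and 1 lower. Of 5 red blood cell genes, 3 were higher and 1 lower as deposited and 0 higher after median-of-ratios scaling, with sums of 826 to 2090 TPM in WT and 1052 to 2549 TPM in KO. Of 4 leukocyte markers tested, 0 were higher and 1, C1qa, was lower. The part of these cell types in the result was not tested.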

How the data were processed

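Kidney RNA, polyadenylated per the labels, was measured in 24 libraries. The authors deposited TPM per transcript; the submitters' processing notes name kallisto 0.42.4 and the build GRCm38, and the index release is not given in the sources used here. Library totals were 999999 to 1000001: depth is unknown, and no interval for counting error was made. Transcripts were summed to genes by identifier without version (GENCODE M21); 86119 of 88198 matched, and unmatched ones held 1.35% to 2.24% of TPM. log2(TPM + 0.1) was tested with limma 3.58.1 in R 4.3.3 (lmFit, eBayes with trend and robust options) where the mean reached 1 TPM, Benjamini-Hochberg over all genes, threshold 0.05. Rhythm was an F test of a 24-hour cosine and sine per genotype. Copies were found with blastn 2.17.0. Members named were, per test, the 6 with the smallest p, those in the rarer direction, the 5 highest and 3 lowest in level, paralogs, members of known role, and from each related list the 2 genes with the smallest p; Rpl27a, Rps12, Rps27rt, pseudogene copies other than Rps15a-ps8, single transcripts, members with printed promoter letters, Cry1 and marker genes were added after values were seen. Members, lists and rules were chosen with earlier results of these data known. Contact libraries of the series were not used here. A gene of a related list is not reported here.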

Additional observations from a re-analysis of the deposited data

How the results depend on the processing

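Counts of members that differed between KO and WT were within 1.5 times the reported 77 under every alternative run (77 of 83 tested, Rps12 included, with copies added), from 67 after median-of-ratios scaling (with and without the library labelled KO ZT4 A) to 78. The median change moved by more than 0.096 only with that scaling, to 0.18, and 0.20 without that library. This 0.096 is a log2 SD of the median member and not the error of the median change. The median change was 0.27 without mitochondrial genes and lay between 0.31 and 0.37 with any 1 library left out. Under median-of-ratios scaling Rpl36al turned to -0.13 and Rpl7l1 to -0.11, and to -0.14 and -0.11 without the library labelled KO ZT4 A. Rps13 turned to 0.21 with pseudogenes marked -ps added and to 0.21 with all close copies added, because both add Rps13-ps1 and Rps13-ps2. Rps15a no longer passed under 10 alternatives.

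The count rhythmic in WT was 1 without mitochondrial genes (13.2% of all genes) and 14 in the 12 WT libraries alone (22.1%). With time as a 6-level factor it was 1, for which no share of all genes is given here. With any 1 library left out it was 1 to 7, the 7 without the library labelled KO ZT4 A (16.6% of all genes). It was 0 in KO and 0 for the difference under every alternative run. Median-of-ratios scaling gave 2 members at ZT0 (9.07% of all genes), 5 at ZT12 (24.3%), 6 at ZT16 (15.2%) and 4 at ZT20 (3.57%). Without the library labelled KO ZT4 A that scaling gave 5 at ZT0 (11.1%) and 6 at ZT12 (24.6%). At ZT16 and ZT20 it then gave 8 (16.3%) and 7 (6.04%). With no filter the count was 13 at ZT0 and 4 at ZT20. No share of all genes is given here for that run, so these counts are no result about the members. Without mitochondrial genes the count was 13 at ZT20 (3.73%). When single libraries were left out, the share of all genes called moved too, as given above for the omissions named there. With any 1 library left out the counts ran from 0 to 56 at ZT0, 0 to 25 at ZT4, 1 to 75 at ZT8, 22 to 68 at ZT12, 2 to 54 at ZT16 and 0 to 36 at ZT20, and the cause was not tested.

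No pairing of libraries by the letters A and B was seen, which does not exclude one. The correlation of their difference between KO and WT ranged from -0.089 to 0.15 over the times. Over all 66 pairs of groups it ranged from -0.32 to 0.34. With the replicate block over all libraries 77 members passed, and 77 with the block within genotype, for which no share of all genes is given here. With 2 libraries per group, single times carry little precision.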
